A study of Homo sapiens with 18 samples.

Results

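The zinc finger genes of human chromosome 19 were described here in MEL624 cells, an established human melanoma line, with and without an edit of PCIF1. They were taken as the protein-coding genes on chromosome 19 whose symbol is ZNF followed by digits and at most a letter. GENCODE 44 on hg38 holds 246 such genes, of which 219 of the 15258 genes measured carried a value, and the other 27 were not analysed here. Of the 219 genes, 212 reached a mean of at least 1 TPM (transcripts per 1000000, a length-normalised abundance) and were tested among 14512 genes in all.

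Polyadenylated RNA was sequenced from 3 lines: PCIF1 KO1, PCIF1 KO2 and a control line. KO1 and KO2 are each a knockout clone of PCIF1 in MEL624. The control is wild type and carries a random sgRNA, and all 3 lines share the MEL624 background. Each line had replicates A, B and C, which the series calls biological, so 9 input libraries were used, and the 9 m6A-immunoprecipitated libraries were not analysed here. With 1 clone behind each knockout line, a p-value here speaks of library-to-library spread within lines and not of further edited clones, and clone and edit cannot be told apart. PCIF1 methylates an adenosine that stands next to the mRNA cap, which makes the first transcribed base of each gene of interest.

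Zinc finger proteins of this family bind DNA through tandem fingers, in each of which cysteines and histidines hold a zinc ion. Many also carry a KRAB domain, which recruits the co-repressor TRIM28 and through it the histone methyltransferase SETDB1, and they are known for silencing transposable elements. Their genes lie in tandem arrays that grew by duplication, so neighbouring copies can share sequence.

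Recovered reads on genes ranged from 7848089 to 11393206 per library, of which 20717 to 31243 fell on the 219 genes. PCIF1 averaged 24.0 ± 1.77 TPM in KO1, 60.3 ± 3.86 TPM in KO2 and 57.6 ± 3.84 TPM in control (SD, n = 3 each). It fell in KO1 (log2 fold change -1.26, SE 0.07, limma adjusted p = 1.65e-06; exact permutation p = 0.1, the smallest that 3 against 3 allows) and did not pass in KO2 (0.07, limma adjusted p = 0.542; exact permutation p = 0.5). Since a frameshift can leave mRNA levels as they are, the KO2 value does not test its label. Of 10 melanocyte markers, 3 had values and reached the 1 TPM mean, and they did not move alike. MITF, the melanocyte master regulator, had 26.3 TPM in KO1, 50 TPM in KO2 and 37.1 TPM in control, ERBB3, a receptor of the EGFR family, had 0.81 TPM in KO1, 0.959 TPM in KO2 and 3.56 TPM in control, and RAB38, of melanosome transport, had 33.0 TPM in KO1, 36.8 TPM in KO2 and 20.8 TPM in control, while SOX10, PMEL, MLANA, TYR, TYRP1, DCT and S100B had no value here. The 4 mesenchymal-state markers summed to 3000 TPM in KO1, 2700 TPM in KO2 and 2800 TPM in control, a sum carried by VIM and AXL. The remaining markers had lower means in both clones, with TGFBI at 11.1 TPM in KO1, 11.4 TPM in KO2 and 46.1 TPM in control and NGFR at 0.899 TPM in KO1, 0.815 TPM in KO2 and 2.70 TPM in control. None of 4 immune and 3 endothelial markers had a value. Of the epithelial list, EPCAM and CDH1 had no value, while the keratin genes KRT18 and KRT8 were well expressed. KRT18 had 876 TPM in KO1, 798 TPM in KO2 and 979 TPM in control. KRT8 had 88.1 TPM in KO1, 95.1 TPM in KO2 and 91.8 TPM in control. The 4 fibroblast markers summed to 13.1 TPM in KO1, 11 TPM in KO2 and 13.1 TPM in control. Among them LUM, a matrix proteoglycan, had 2.39, 1.15 and 0.0665 TPM in KO1, KO2 and control. The part of these markers in the results was not tested.

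To show where transcription of these genes begins, the annotated starts of 8 of them are printed from RefSeq on GRCh38.p14, in the direction of transcription. They are members with changes in both clones (ZNF486, ZNF43, ZNF528, ZNF829, ZNF415 and ZNF844) and members on which the clones differed (ZNF556 and ZNF560). ZNF43 was chosen after its values were seen, as a second carrier of the promoter word described next. Each run holds 90 bases before the start and 20 from it on. Capitals mark the first transcribed base and, where it occurs, the 10-letter word TCCAATCAGG.
ZNF486, chr19:20167124-20167233, plus strand: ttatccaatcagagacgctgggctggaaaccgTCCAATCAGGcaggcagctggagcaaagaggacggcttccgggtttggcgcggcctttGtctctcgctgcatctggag
ZNF43, chr19:21836163-21836272, minus strand: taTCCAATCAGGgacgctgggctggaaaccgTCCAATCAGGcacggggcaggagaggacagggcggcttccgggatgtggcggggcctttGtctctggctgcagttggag
ZNF528, chr19:52397759-52397868, plus strand: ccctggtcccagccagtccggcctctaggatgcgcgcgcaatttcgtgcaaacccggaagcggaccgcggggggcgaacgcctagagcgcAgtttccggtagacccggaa
ZNF829, chr19:36916272-36916381, minus strand: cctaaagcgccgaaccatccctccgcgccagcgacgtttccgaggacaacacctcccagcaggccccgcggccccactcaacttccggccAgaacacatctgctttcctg
ZNF415, chr19:53132891-53133000, minus strand: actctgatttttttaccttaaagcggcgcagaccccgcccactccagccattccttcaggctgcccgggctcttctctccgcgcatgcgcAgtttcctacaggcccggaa
ZNF844, chr19:12064641-12064750, plus strand: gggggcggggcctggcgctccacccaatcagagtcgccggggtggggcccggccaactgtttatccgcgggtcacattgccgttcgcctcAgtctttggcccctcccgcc
ZNF556, chr19:2867245-2867354, plus strand: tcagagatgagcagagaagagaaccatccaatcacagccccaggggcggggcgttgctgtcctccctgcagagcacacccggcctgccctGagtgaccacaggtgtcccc
ZNF560, chr19:9498597-9498706, minus strand: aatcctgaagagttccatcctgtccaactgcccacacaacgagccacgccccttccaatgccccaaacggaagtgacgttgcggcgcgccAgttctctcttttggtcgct

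RefSeq promoters of 300 bases, 250 before and 50 from the start, matched 197 of the 219 genes by symbol, and 181 of these began at the same base as the GENCODE canonical transcript. The first base was A in 92, G in 90, C in 15 and T in 0 of the 197, so A made up 46.7%, against 44.3% of all 27305 promoters. The word TCCAATCAGG was the most frequent 10-letter word on the gene's own strand of these promoters. On either strand it occurred in 40 of 197 (20.3%), of which 39 on the gene's own strand, against 0.388% of all promoters. It contains the shorter word CCAAT, which occurred in 54.3% of the 197 and in 35.7% of all. The most frequent 12-letter word, CTGTCACTCAGG, occurred on either strand in 20 of 197 (10.2%) and in 0.136% of all promoters, and 17 genes held both long words, which share the letters TCAGG at their ends. Both long words were chosen for their frequency in these same 197 promoters, which are also part of all promoters. Their excess over all promoters follows at least in part from that choice and is no test of enrichment. The word CTTCCGG occurred in 47.2% of the 197 and in 10.7% of all. As printed, ZNF43 holds TCCAATCAGG at 88 and at 59 bases before the start and ZNF486 at 58 bases before it, and ZNF556 holds it further upstream than the printed run.

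The proteins encoded by the 219 genes were read from the GENCODE canonical transcripts. A KRAB A-box stretch, searched as F-x-x-E-E-W, occurred in 154, and the number of finger matches ran from 1 to 31 with a median of 12. In control cells the 212 tested genes were weakly expressed, with a median level of 5.31 TPM against 19.1 TPM over all genes tested, and a range from 0.0258 to 103 TPM. Only 51 reached 10 TPM. Their transcripts had a median GC content of 42.3%, against 48.5% over all genes tested, and a median length of 3999 bases, against 2890. Of the 219 genes, 48 shared at least 10% of their 50-base stretches with another gene, and 59 shared at least 10% of their exonic bases with an overlapping gene, so reads may be split for them.

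The first comparison asks which of these mRNAs differ between KO1 cells and control cells. Zinc finger genes of chromosome 19 were higher in KO1 far more often than lower. A limma adjusted p under 0.05 was reached by 92 of 212 as higher (43.4%) and by 4 as lower (1.89%). The background over all 14512 genes tested was 20.2% higher and 14.1% lower. The median log2 fold change was 0.34, a 1.26-fold higher level, against 0.035 over all genes tested, and 186 of 212 values were above 0. The changes were mostly small: the middle of the distribution ran from 0.14 at the lower to 0.61 at the upper quartile, and 20 genes exceeded 1. In 128 of 212 genes (60.4%, against 29.1% of all genes tested) every KO1 library lay above every control library, and in 4 (1.89%, against 20.7%) every KO1 library lay below. Among all genes called in KO1, 58.9% were higher as deposited and 48.2% after a trend on GC content and length was removed. With that trend removed, 35.4% of the 212 zinc finger genes were higher and 1.89% lower. The background there was 17.5% higher and 18.8% lower of 14396 genes tested.

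In KO2 the same family was also more often higher than lower, at a smaller size. Of 212 genes, 48 were higher (22.6%) and 8 lower (3.77%), against 15.6% and 14.8% of all genes tested. The median log2 fold change was 0.17, a 1.12-fold higher level, against 0.0099 over all genes tested, and 154 values were above 0. Every KO2 library lay above every control library in 67 genes (31.6%, against 22.3%) and below in 21 (9.91%, against 21.4%). The 8 genes lower in KO2 became 5 without control replicate A, without control replicate C or without KO2 replicate C.

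Both comparisons use the same 3 control libraries. Within that limit, 43 genes were higher in both clones (20.3%, against 8.47% of all genes tested) and 1 was lower in both (0.472%, against 7.26%). These 43 are 46.7% of the genes higher in KO1 and 89.6% of those higher in KO2. All 6 knockout libraries lay above all 3 control libraries in 59 genes (27.8%, against 13.1%) and below in 2 (0.943%, against 11.3%). Among the 43, the log2 fold changes ran from 0.28 to 6.36 in KO1 with a median of 0.87, and from 0.18 to 6.39 in KO2 with a median of 0.64. The upper ends depend on the prior count in the deposited values, since ZNF844 and ZNF415, described below, had 2 and 0 reads in control.

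**Figure D1:**
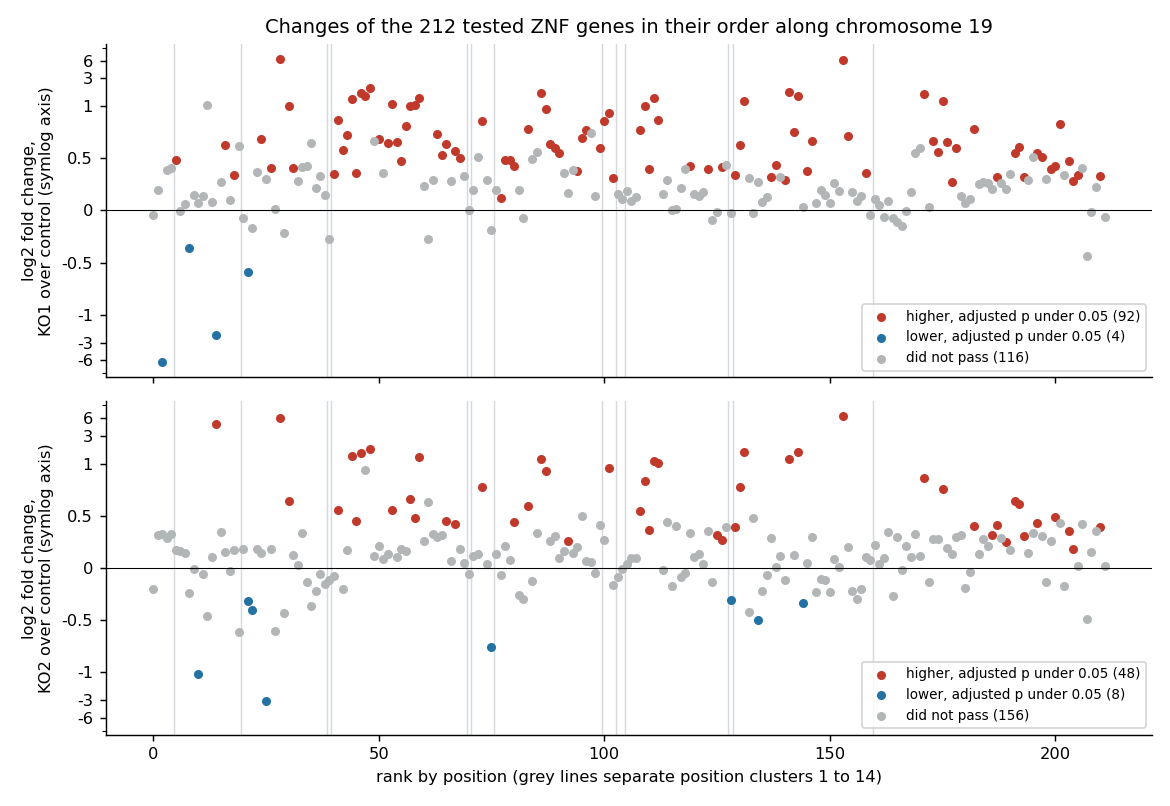
The log2 fold change of each of the 212 tested genes is plotted in the order of position on chromosome 19, for KO1 over control in the upper and KO2 over control in the lower panel, on a symlog axis that is linear between -1 and 1. Red points are called higher (92 in KO1, 48 in KO2) and blue points lower (4 and 8), with no error bars shown, and red points occur in each of the 7 clusters with at least 10 tested genes, while the first 5 genes in the order have none and blue points are few.

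Summed over the 219 genes, the level was 2195, 2091 and 2132 TPM in the KO1 libraries, 1951, 2007 and 1937 TPM in the KO2 libraries and 1795, 1733 and 1747 TPM in the control libraries. The 3 lines did not overlap, with KO1 highest and control lowest. The mean was 122% of control in KO1 and 112% in KO2. As a share of all recovered reads the family took 0.299% to 0.304% in KO1, 0.275% to 0.279% in KO2 and 0.247% to 0.255% in control. In such bulk RNA, fewer cells that express a gene and less of its RNA per cell cannot be told apart.

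The same shares were computed in other gene sets. Of 210 tested ZNF genes on other chromosomes, 26.7% were higher and 6.19% lower in KO1, with a median log2 fold change of 0.12, and in KO2 25 were higher (11.9%) and 18 lower (8.57%). Of 715 tested protein-coding genes of chromosome 19 outside the family as defined by symbol, 21.3% were higher and 20.3% lower in KO1, with a median of 0.0022, and in KO2 91 were higher (12.7%) and 122 lower (17.1%). Readthrough genes and zinc finger genes with other forms of symbol, where measured, were not removed from this set. The same holds for the other genes of each position cluster below. Of 2722 protein-coding genes outside the ZNF genes whose GC content lay between the quartiles of the family, 21.3% were higher and 11.7% lower in KO1, with a median of 0.043. In KO2 16.3% of them were higher and 14.1% lower, with a median of 0.010. Among the 166 tested zinc finger genes of chromosome 19 that share under 10% of their 50-base stretches, 73 were higher and 4 lower in KO1 and 43 higher and 8 lower in KO2. These are descriptions, and differences between the sets were not tested.

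**Figure D2:**
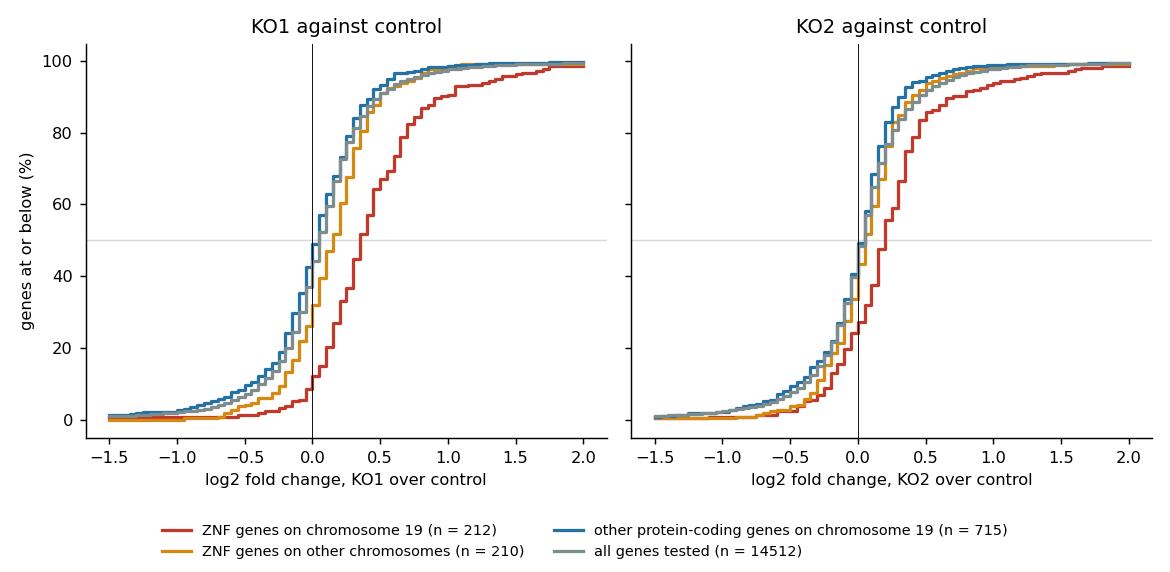
Cumulative distributions show the percent of genes (vertical axis) at or below each log2 fold change (horizontal axis), for KO1 over control on the left and KO2 over control on the right. The red line of the 212 zinc finger genes of chromosome 19 lies to the right of the lines of 210 ZNF genes on other chromosomes, 715 other protein-coding genes of chromosome 19 and all 14512 genes over most of the range, and the gap is wider in KO1, where the median is 0.34, than in KO2, where it is 0.17.

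Genes higher in both clones included ZNF415 and ZNF844, which were barely detected in control cells. ZNF415, a gene of the cluster that ends in ZNF331, had 15, 17 and 21 reads in KO1, 21, 21 and 19 reads in KO2 and 0, 0 and 0 reads in control. It was thus read in every knockout library and in no control library. Against a floor of 3 reads over the 3 control libraries it was at least 17.6-fold higher in KO1 and at least 21.9-fold higher in KO2. ZNF844 had 52, 70 and 57 reads in KO1, 49, 46 and 42 reads in KO2 and 1, 1 and 0 reads in control, again with no overlap. Its ratio was 89.3 in KO1 (95% counting interval 24.4 to 743) and 73.8 in KO2 (20.0 to 615), and 45.7% of its 50-base stretches also occur in an overlapping readthrough gene. Intervals and floors cover counting error only. Among the 7 genes below the mean of 1 TPM, ZNF677 had 96 reads in KO1, 115 in KO2 and 1 in control, and ZNF506 had 89 reads in KO1, 67 in KO2 and 12 in control. ZNF813 and ZNF836 also had more reads in both clones than in control. The remaining genes went other ways. ZNF880 had 2 reads in KO1, 18 in KO2 and 37 in control, fewer in both clones. ZNF525 had 8 reads in KO1, 99 in KO2 and 38 in control, and ZNF471 had 48, 16 and 23.

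Other genes that rose in both clones were expressed in control cells as well. ZNF486 had 12.7, 12.1 and 14.6 TPM in KO1, 11.6, 10.6 and 12.3 TPM in KO2 and 4.50, 3.93 and 3.62 TPM in control. Its knockout libraries all stood far above the control libraries, at similar levels in both clones. The log2 fold change was 1.71 in KO1 (SE 0.12, limma adjusted p = 5.04e-06) and 1.52 in KO2 (SE 0.12, limma adjusted p = 9.67e-06). ZNF43, a gene of the same cluster with 19 finger matches, had 12.9, 12.8 and 15.1 TPM in KO1, 12.5, 13.9 and 11.96 TPM in KO2 and 5.38, 5.21 and 5.16 TPM in control. Here too the lines did not overlap with control, and the log2 fold changes were 1.37 for KO1 (limma adjusted p = 6.11e-06) and 1.28 for KO2 (limma adjusted p = 8.67e-06). Both genes start with G, as the printed sequences show.

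ZNF528 and ZNF829, KRAB genes that start with A, rose in both clones and more in KO1. ZNF528 had 6.71, 6.15 and 6.68 TPM in KO1, 4.61, 4.91 and 4.01 TPM in KO2 and 1.74, 2.26 and 1.90 TPM in control. The 3 lines did not overlap, and KO2 lay between KO1 and control. The log2 fold changes were 1.73 in KO1 (limma adjusted p = 1.88e-05) and 1.20 in KO2 (limma adjusted p = 0.000171). ZNF829 had 5.17, 5.49 and 5.66 TPM in KO1, 3.90, 4.23 and 3.55 TPM in KO2 and 1.72, 2.003 and 1.40 TPM in control, with the same order and no overlap. It rose by 1.69 on the log2 scale in KO1 (limma adjusted p = 4.70e-05) and by 1.20 in KO2 (limma adjusted p = 0.000351).

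ZNF649, known to bind LINE-1 retrotransposons, had 4.60, 4.60 and 4.72 TPM in KO1, 6.28, 5.12 and 6.55 TPM in KO2 and 1.79, 2.22 and 1.87 TPM in control. It was highest in KO2 and lowest in control without overlap. The log2 fold change was 1.25 in KO1 (limma adjusted p = 0.000161) and 1.61 in KO2 (limma adjusted p = 2.53e-05). ZNF701 averaged 1.72 ± 0.15 TPM in KO1, 1.804 ± 0.08 TPM in KO2 and 0.62 ± 0.19 TPM in control (SD, n = 3 each), and rose by 1.52 (limma adjusted p = 0.00125) and 1.59 (limma adjusted p = 0.00091) on the log2 scale in KO1 and KO2. ZNF626 rose by 2.05 and 1.77 in KO1 and KO2 (limma adjusted p = 0.00295 and 0.00653), but rests on 91 reads in KO1, 70 in KO2 and 21 in control. ZNF221 rose by 1.38 and 1.10 (limma adjusted p = 0.00124 and 0.00437) and ZNF470 by 1.62 and 0.86 (limma adjusted p = 9.32e-05 and 0.00394) in KO1 and KO2.

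**Figure D3:**
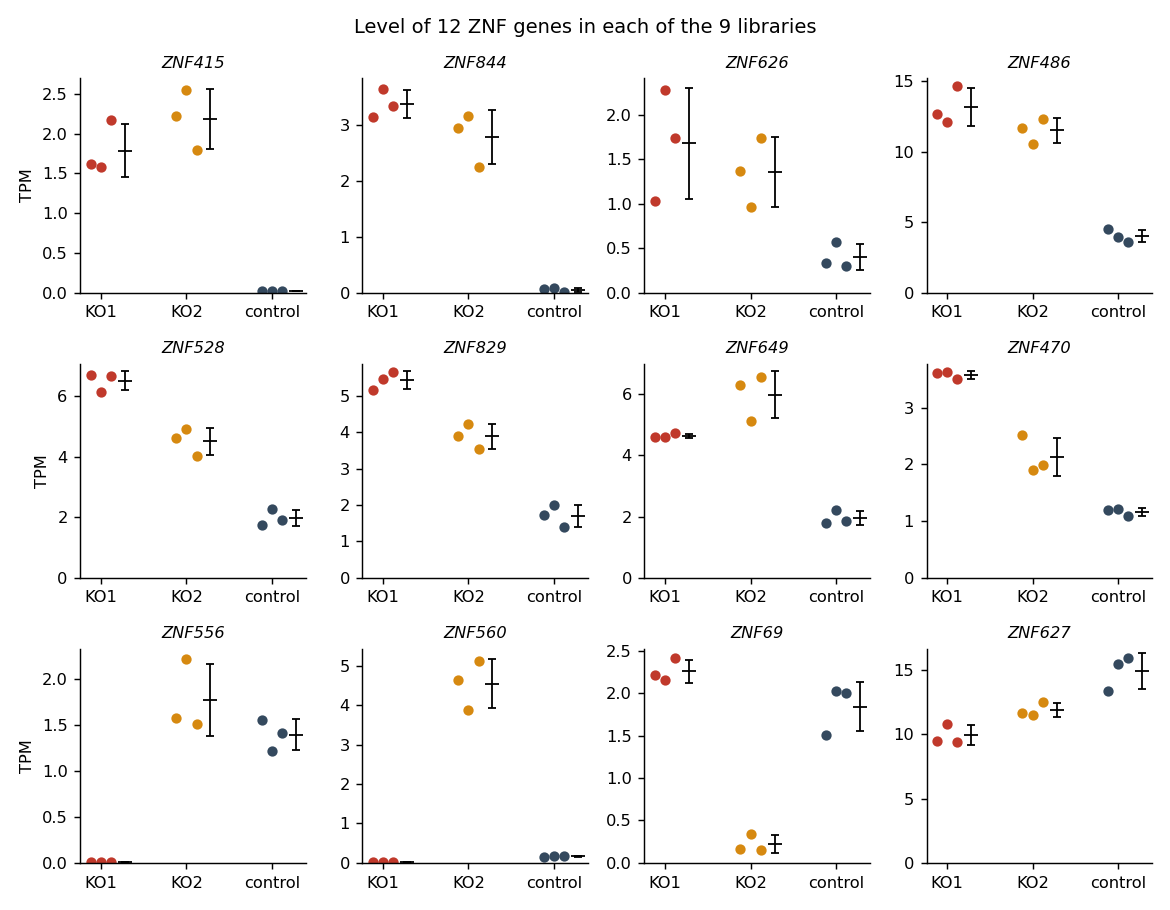
Each panel plots the level in TPM of a gene in the 3 KO1, 3 KO2 and 3 control libraries (coloured points), with the mean and SD of each line as a black bar, on a linear axis from 0. The upper 8 panels show genes higher in both clones, such as ZNF486 at 13.1, 11.5 and 4.02 TPM in KO1, KO2 and control, and the lowest row shows ZNF556, ZNF560, ZNF69 and ZNF627, which do not follow that pattern.

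Of 7 genes with a textbook role, ZNF649 among them, 5 rose in KO1 and 3 in KO2, against 43.4% and 22.6% of the whole family and 20.2% and 15.6% of all genes tested. ZNF91, which represses SVA retrotransposons and had the most finger matches, 31, measured 14.8, 16.5 and 16.4 TPM in KO1, 13.98, 13.9 and 14.1 TPM in KO2 and 11.5, 9.67 and 9.60 TPM in control. All knockout libraries were above the control libraries, and it rose by 0.63 (limma adjusted p = 0.000535) and 0.45 (limma adjusted p = 0.00371) on the log2 scale in KO1 and KO2. ZNF274, which recruits the TRIM28 machinery to zinc finger genes themselves, measured 21.6, 21.4 and 20.6 TPM in KO1, 18.7, 19.4 and 20.6 TPM in KO2 and 16.1, 15.7 and 14.1 TPM in control. It rose by 0.47 in KO1 (limma adjusted p = 0.000756) and by 0.36 in KO2 (limma adjusted p = 0.00384), again without overlap with control. ZNF93, which represses LINE-1 elements, measured 4.46, 3.85 and 5.15 TPM in KO1, 3.28, 2.54 and 3.36 TPM in KO2 and 2.89, 2.71 and 2.49 TPM in control. It rose in KO1 (0.73, limma adjusted p = 0.00815), while KO2 overlapped with control and did not pass (0.17, limma adjusted p = 0.473). ZNF808, required for development of the pancreas, rose by 0.75 in KO1 (limma adjusted p = 0.0103) and had 0.13 in KO2 (limma adjusted p = 0.646). ZNF257 and ZNF331 passed in neither clone.

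The most abundant genes of the family in control were ZNF146, ZNF428, ZNF358, ZNF581 and ZNF787. ZNF146, whose protein consists almost wholly of fingers, had 112, 114 and 112 TPM in KO1, 101, 95.4 and 98.9 TPM in KO2 and 102, 104 and 103 TPM in control. KO1 lay above and KO2 below control with no overlap, by small amounts. The log2 fold change of 0.12 in KO1 passed (limma adjusted p = 0.0222), but not without any of control replicates A, B and C or KO1 replicates B and C (0.11 to 0.13). Nor did it pass after median centring (0.09), with a GC and length trend (0.08), with limma-voom on recovered reads (0.07), with a correction for neighbouring genes (0.05), with no variance trend or with the replicate block (0.12 in both). In KO2 it was -0.07 (limma adjusted p = 0.143). The other 4 passed in neither clone, with log2 fold changes from -0.15 for ZNF581 in KO1 to 0.21 for ZNF787 in KO2.

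Lower genes were few. The 4 called lower in KO1 were ZNF556, ZNF558, ZNF560 and ZNF627, of which ZNF560 lost the call with log2(TPM + 1) (-0.17), with log2(TPM + 5) (-0.0366) and with limma-voom on recovered reads (-1.58). ZNF556 had 0 reads in all 3 KO1 libraries, 26, 32 and 28 reads in KO2 and 33, 19 and 24 reads in control. It was thus unread in KO1 and similar in the other two lines, and was at least 25.4-fold lower in KO1 than in control. ZNF560 had 0 reads in each KO1 library, 33, 24 and 41 reads in KO2 and 1, 1 and 1 read in control. It was high in KO2 alone, by a ratio of 35.2 over control (95% counting interval 11.7 to 174), and KO1 and control both sit at or under the floor of 3 reads, so no fold is given between them. ZNF627 was the gene lower in both clones, at 9.53, 10.8 and 9.42 TPM in KO1, 11.7, 11.5 and 12.5 TPM in KO2 and 13.4, 15.5 and 15.96 TPM in control. The lines did not overlap, and the log2 fold change was -0.59 in KO1 (limma adjusted p = 0.00113) and -0.32 in KO2 (limma adjusted p = 0.027). The KO2 call was lost without control replicate B or C or KO2 replicate A or B, at -0.31 to -0.27, and with a correction for neighbouring genes (-0.24).

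The other genes lower in KO2 were ZNF69, ZNF699, ZNF792, ZNF823, ZNF473, ZNF615 and ZNF83. ZNF69 had 2.22, 2.15 and 2.41 TPM in KO1, 0.17, 0.34 and 0.15 TPM in KO2 and 1.503, 2.02 and 1.996 TPM in control. KO2 stood far below both other lines, at a log2 fold change of -3.14 against control (SE 0.33, limma adjusted p = 7.11e-05), from 4 reads in KO2 and 43 in control. ZNF699, mutated in a syndrome of developmental delay, fell by 1.10 in KO2 (limma adjusted p = 0.00632), at 2.12 ± 0.82 TPM in KO2 and 4.36 ± 0.57 TPM in control (SD, n = 3 each). ZNF473, a partner of the U7 particle in histone mRNA processing, fell by 0.31 in KO2 (limma adjusted p = 0.0226) and measured -0.03 in KO1. ZNF83 fell by 0.34 in KO2 (limma adjusted p = 0.00791) and measured 0.03 in KO1. No exonic base of ZNF69, ZNF556 or ZNF560 lies in an exon of another annotated gene.

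The clones were compared directly, as KO2 over KO1. Of 212 genes, 4 were higher (1.89%) and 45 lower (21.2%) in KO2 than in KO1, against 11.8% and 16.9% of all genes tested. The median log2 fold change was -0.19, against -0.037 over all genes tested. Every KO2 library lay above every KO1 library in 8 genes (3.77%, against 17%) and below in 81 (38.2%, against 26.0%). The 45 lower genes became 28 without KO1 replicate A and 26 without KO1 replicate C. Of the 49 genes called higher in KO1 and not called in KO2, 20 were lower in KO2 than in KO1, so for the rest the clones were not shown to differ. Of the 43 genes higher in both clones, 28 had the larger change in KO1, 7 were called lower in KO2 than in KO1 and 0 were called higher. ZNF528 (-0.53, limma adjusted p = 0.0198), ZNF829 (-0.48, limma adjusted p = 0.0466) and ZNF470 (-0.76, limma adjusted p = 0.00872) were among these 7. ZNF528 missed the threshold without KO1 replicate A or C or KO2 replicate C (-0.52 to -0.45) and with the replicate block and a GC and length trend together (-0.496), and ZNF829 without any KO1 or KO2 library or control replicate A (-0.55 to -0.42), with median centring, quantile normalization, a GC and length trend or a correction for neighbouring genes (-0.44 to -0.395), and with the replicate block (-0.48).

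The 4 genes higher in KO2 than in KO1 were ZNF560, ZNF556, ZNF580 and ZNF229. ZNF560 was at least 35.2-fold and ZNF556 at least 30.9-fold higher in KO2, each against 0 reads in KO1. ZNF580 was higher by 0.41 (limma adjusted p = 0.0275), a call lost without KO1 replicate B or C or KO2 replicate B (0.27 to 0.40), with no variance trend or in a fit of these 2 lines alone (0.41 in both), and 15.6% of its exonic bases are shared with ZNF581 on the same strand. ZNF229 was higher by 0.33 (limma adjusted p = 0.0297), a call lost without KO1 replicate A or B or KO2 replicate A or C (0.28 to 0.33) and with the replicate block (0.33). At the other end, the log2 fold change was -3.45 for ZNF69 (limma adjusted p = 6.51e-05), -1.18 for ZNF699 (limma adjusted p = 0.00524) and -1.24 for ZNF846 (limma adjusted p = 0.00746). ZNF846 rests on 51 reads in KO1 and 20 in KO2, and 21.1% of its 50-base stretches also occur in another gene. ZNF177 (-1.498, limma adjusted p = 0.0128) and ZNF709 (-1.02, limma adjusted p = 0.0295) share 76.6% and 92.2% of their 50-base stretches with readthrough or overlapping genes and are uncertain. The call of ZNF177 was lost without KO1 replicate A (-1.25), and that of ZNF709 without any KO1 replicate or KO2 replicate A or C (-1.07 to -0.75). ZNF93 (-0.55, limma adjusted p = 0.0332) and ZNF808 (-0.63, limma adjusted p = 0.0278) were lower in KO2, but ZNF93 missed the threshold without KO1 replicate A or C or KO2 replicate A or B (-0.61 to -0.42), with quantile normalization (-0.503) and in a fit of these 2 lines alone (-0.55), and ZNF808 without KO1 replicate A or B or KO2 replicate A or B (-0.67 to -0.46), with a correction for neighbouring genes (-0.59) and with the replicate block, alone (-0.63) or with a GC and length trend (-0.602).

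By position the 219 genes fell into 14 clusters, split where neighbours lay over 1 Mb apart, and 7 clusters with at least 10 tested genes held 194. Coordinates are hg38. The shares over all genes tested were 20.2% higher in KO1 and 15.6% higher in KO2, as above. The cluster from ZNF101 to ZNF254 next to the centromere on the short arm (19668796 to 24129968) showed the most: of 30 tested genes, 23 were higher and 0 lower in KO1 and 11 higher and 0 lower in KO2, with median log2 fold changes of 0.65 and 0.30. It holds ZNF91, ZNF93, ZNF43, ZNF486 and ZNF626, and 2 other tested protein-coding genes lie in it, of which both were higher in KO1 and 0 were called in KO2. Their medians, 0.88 in KO1 and 0.59 in KO2, lay above those of the zinc finger genes there. In the cluster from ZNF565 to ZNF573 (36182276 to 37817300), 14 of 24 were higher and 0 lower in KO1 and 5 and 0 in KO2, with medians of 0.49 and 0.19. Its 5 other tested protein-coding genes had medians of 0.29 in KO1 and -0.06 in KO2. The cluster from ZNF175 to ZNF331 (51571283 to 53580269) had 14 of 31 higher and 0 lower in KO1, and 6 higher and 2 lower in KO2, with medians of 0.29 and 0.05. Its 4 other tested protein-coding genes had medians of 0.13 in KO1 and -0.14 in KO2.

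The distal cluster from ZNF628 to ZNF446 (55476617 to 58481230) is the largest, with 52 tested genes, with 21 higher and 0 lower in KO1 and 14 and 0 in KO2. Its medians were similar in KO1 and KO2, 0.30 and 0.26. Its 27 other tested protein-coding genes had 7 higher and 3 lower in KO1 and 5 higher and 2 lower in KO2, with medians of 0.15 and 0.19. The cluster from ZNF575 to ZNF296 (43525497 to 45076478) had 8 of 23 higher and 0 lower in KO1 and 7 and 0 in KO2, with medians of 0.22 and 0.26, while its 21 other genes had 3 higher and 3 lower in KO1. In KO2 0 of those 21 were higher and 7 lower, against 15.6% and 14.8% of all genes tested. Their medians were 0.03 in KO1 and -0.10 in KO2. Further out on the short arm the shares of higher genes lay nearer to or below those over all genes tested. From ZNF557 to ZNF846 (7069703 to 9793180), 3 of 15 were higher (20.0%) and 2 lower in KO1, and 1 (6.67%) and 1 in KO2, with medians of 0.14 and 0.10. The 27 other tested protein-coding genes there had medians of 0.01 in KO1 and 0.04 in KO2. From ZNF653 to ZNF791 (11483427 to 12640098), 5 of 19 were higher (26.3%) and 1 lower in KO1, and 2 higher (10.5%) and 3 lower in KO2. Its median was 0.33 in KO1, where 15 of 19 values were above 0, and -0.06 in KO2. The 8 other tested protein-coding genes there had medians of 0.28 in KO1 and 0.01 in KO2.

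**Figure D4:**
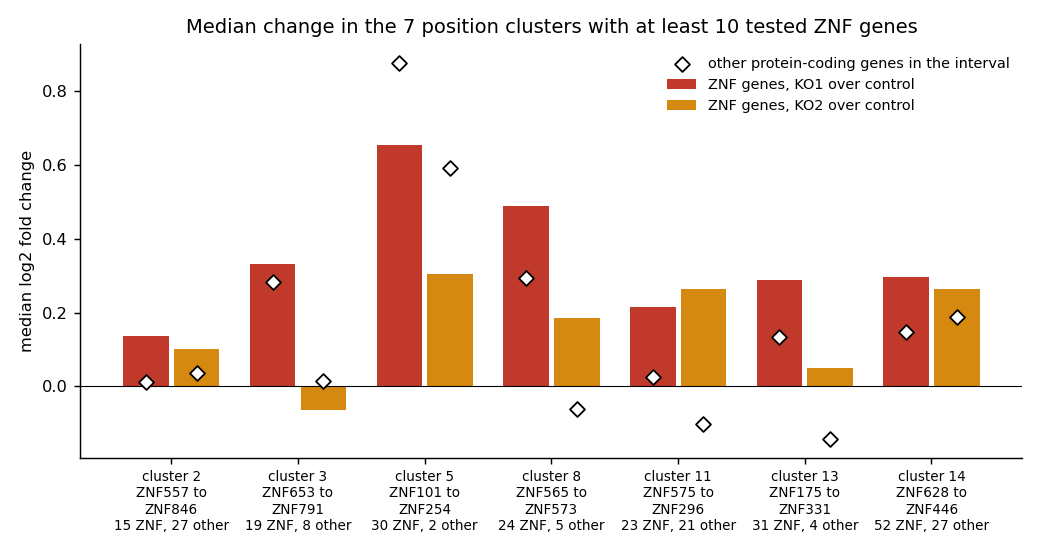
Bars give the median log2 fold change (vertical axis) of the tested zinc finger genes in each of the 7 position clusters with at least 10 of them, for KO1 over control and KO2 over control, and open diamonds give the median of the other protein-coding genes in the same interval, with no error bars. The ZNF101 to ZNF254 cluster has the tallest bars, 0.65 in KO1 and 0.30 in KO2, and its diamonds, at 0.88 and 0.59, lie above the bars and rest on 2 genes.

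The promoter word TCCAATCAGG followed these clusters. It occurred in 25 of 27 matched promoters of the ZNF101 to ZNF254 cluster, in 12 of 19 of the ZNF653 to ZNF791 cluster, in 3 of 5 of the most distal short-arm cluster, which runs from ZNF554 to ZNF77, and in 0 elsewhere on the chromosome within the family. The 40 carriers had 23 higher and 2 lower in KO1 and 12 higher and 2 lower in KO2, with median log2 fold changes of 0.55 and 0.19, against 0.30 and 0.16 in the 152 tested genes with a promoter and without the word. Of those 152, 61 were higher and 2 lower in KO1. Over all genes tested, 20.2% were higher in KO1 and 15.6% in KO2. Within the ZNF653 to ZNF791 cluster the medians were 0.35 in KO1 and -0.15 in KO2 for the 12 carriers, and 0.31 and 0.18 for the 7 others. The word and the position cannot be told apart in the ZNF101 to ZNF254 cluster, where only 2 promoters lack it. The 20 carriers of CTGTCACTCAGG had 16 higher and 0 lower in KO1 and 9 and 0 in KO2. The 172 tested genes with a promoter and without that word had 68 higher and 4 lower in KO1. Of the 20 carriers, 17 lie in the ZNF101 to ZNF254 cluster. Within it, 14 of these 17 were higher in KO1 with a median of 0.685, and so were 7 of the 10 genes without the word, with a median of 0.665. A match of these letters is a description of the window and not a site.

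Since PCIF1 acts on transcripts that begin with A, the genes were split by the base at the canonical start. Of 98 that begin with A, 43 were higher and 1 lower in KO1 (43.9% higher), with a median log2 fold change of 0.33. Of 98 that begin with G, 45 were higher and 3 lower (45.9% higher), with a median of 0.39. Of 16 that begin with C, 4 were higher and 0 lower, with a median of 0.21. In KO2, 22 of the A (22.4%), 23 of the G (23.5%) and 3 of the C genes (18.8%) were higher, and 3, 3 and 2 were lower. Over all genes tested, 15.6% were higher and 14.8% lower in KO2. Protein-coding genes outside the family had 21.3% higher in KO1 among those that begin with A, 21.1% with G and 16.8% with C. In KO2 these shares were 16.2%, 15.5% and 17.1%. Annotated starts need not be the starts used in these cells.

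Genes with a KRAB A-box match and genes with many fingers had the higher shares in KO1. Of 147 tested genes with the match, 71 were higher and 4 lower in KO1 (48.3% higher), with a median log2 fold change of 0.37, and 38 were higher in KO2. Of the 65 without it, 21 were higher and 0 lower (32.3%), with a median of 0.18, and 10 were higher in KO2. In KO2 these were 25.9% of the genes with the match and 15.4% of those without it, with 6 and 2 lower. Over all genes tested, 20.2% were higher and 14.1% lower in KO1, and 15.6% and 14.8% in KO2. The genes without the match thus lay near that share in KO2. By finger matches, 10 of 39 genes with 8 or fewer were higher in KO1 (25.6%), 31 of 70 with 9 to 12, 28 of 63 with 13 to 16, and 23 of 40 with 17 or more (57.5%). In KO2 the share higher did not follow this order, at 15.4%, 28.6%, 25.4% and 15.0% from the fewest to the most fingers. The first and the last of these lie near the 15.6% over all genes tested. Of the 40 with 17 or more, 13 were lower (32.5%) and 0 higher in KO2 than in KO1. Over all genes tested these shares were 16.9% and 11.8%. Genes with a mean under 5 TPM had a median log2 fold change of 0.50 in KO1, those from 5 to 10 TPM 0.35 and those of at least 10 TPM 0.19, so size moved with level in KO1. In KO2 the medians of these classes were 0.26, 0.13 and 0.15, which do not follow that order. These classes overlap with the position clusters, and their part in the result was not tested.

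**Figure D5:**
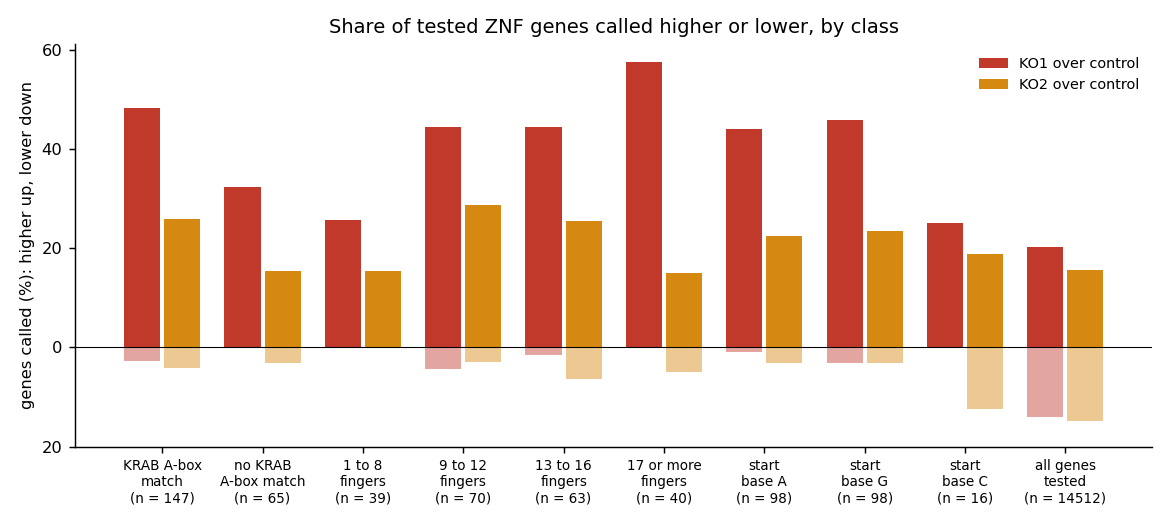
Bars give the percent of tested zinc finger genes of chromosome 19 called higher (upward) and lower (downward, paler) in KO1 over control and KO2 over control, by KRAB A-box match, number of finger matches and first transcribed base, with all 14512 genes tested at the right. In KO1 the upward bar is 57.5% for genes with 17 or more fingers, 43.9% for start base A and 45.9% for start base G, against 20.2% for all genes.

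The partners through which KRAB zinc finger proteins silence chromatin were measured with a list of 47 genes, all tested. In KO1 17 rose and 3 fell, with a median log2 fold change of 0.10, and in KO2 3 rose and 7 fell, with a median of 0.05, against the backgrounds of 20.2% higher and 14.1% lower in KO1 and 15.6% and 14.8% in KO2 given above. TRIM28, the co-repressor itself, had 704 ± 34.1 TPM in KO1, 623 ± 35.0 TPM in KO2 and 602 ± 18.5 TPM in control (SD, n = 3 each). It rose in KO1 (0.23, limma adjusted p = 0.00612) and did not pass in KO2 (0.05, limma adjusted p = 0.501). SETDB1, the methyltransferase it recruits, passed in neither clone, at 0.01 for KO1 (limma adjusted p = 0.899) and 0.08 for KO2 (limma adjusted p = 0.334). ATF7IP, the stabilising partner of SETDB1, rose by 0.37 in KO1 (limma adjusted p = 0.000624), as did the heterochromatin protein gene CBX5, by 0.42 (limma adjusted p = 0.000171). WIZ, a partner of the methyltransferases EHMT1 and EHMT2, rose in both clones (0.44 and 0.27 in KO1 and KO2, limma adjusted p = 0.000756 and 0.0125), as did the chromatin remodeller HELLS (0.31 and 0.55, limma adjusted p = 0.00329 and 9.76e-05).

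The other genes of the list that rose in KO1 were CHD3, CHD4, HDAC1, RBBP4, GATAD2A, GATAD2B and MBD3, which encode subunits of the NuRD complex, together with DNMT1 and UHRF1, which maintain DNA methylation, SUV39H2, TRIM24 and TRIM33. Other NuRD subunits of the list did not rise: MTA1 and MTA2 did not pass in either clone, and HDAC2 and RBBP7 fell. Among the genes just named as rising, log2 fold changes ran from 0.11 for HDAC1 to 0.44 for GATAD2A. TASOR, of the HUSH silencing complex, fell by 0.27 in KO1 (limma adjusted p = 0.00181). HDAC2 fell by 0.17 in each clone (limma adjusted p = 0.0335 in KO1 and 0.0358 in KO2) and RBBP7 by 0.18 in KO1 (limma adjusted p = 0.00515) and 0.17 in KO2 (limma adjusted p = 0.00593). CHD3, CBX3, ATRX and H3-3B were among the others that fell in KO2, by 0.15 for CBX3 to 0.25 for H3-3B, and SUMO3 rose by 0.16. Between the clones, 4 of the 47 were higher and 15 lower in KO2 than in KO1, against 11.8% and 16.9% of all genes tested.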

How the data were processed

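The authors deposited log2 TPM values of 9 input libraries; tools per the submitters' processing notes were featureCounts, edgeR 3.12.1, HISAT2 2.0.4, deepTools 3.0.2, SAMtools 1.7 and R 3.3.3, with hg38. The sources used here do not give their roles, the annotation, the counting strand or the gene filter. A prior count had been added before the logarithm, so fold changes of genes near 0 understate or depend on it. Whole reads were recovered for 100% of 15258 genes (tolerance 1e-06 reads) and totalled 84602764.

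Genes were matched to GENCODE 44 by Ensembl identifier (15138 matched, 120 did not). The test was limma-trend (R 4.3.3 with limma 3.58.1) over all 9 libraries of deposited log2 TPM values, 1 mean per line, 6 residual degrees of freedom, two-sided, with p-values adjusted by Benjamini-Hochberg across 14512 genes whose mean reached 1 TPM. A gene was called at an adjusted p under 0.05. The script was tested on simulated data. The labels give no batch.

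The members and lists were chosen with earlier results of these data known. Named were the 5 most abundant members, the 8 highest and the lowest called in both clones without overlap, up to 5 per direction between clones, members unread in a line, the largest change per cluster, textbook members, and TRIM28, SETDB1 and called partners, of which 1 is not reported here. Other genes named were chosen after their values were seen. Alternatives were 2 pseudocounts, 2 filters, 2 scalings, no variance trend, a fit of 2 lines, a replicate block, a GC and length trend, a correction for 51 neighbouring genes, limma-voom on recovered reads, and leaving out each library.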

Additional observations from a re-analysis of the deposited data

Results flagged for a closer look

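For 15 named genes the KO2 and KO1 clones differed in a direct test (limma adjusted p under 0.05 for KO2 over KO1 on the log2 scale), which flagged them for a closer look. ZNF560 (7.0) and ZNF556 (6.84) stood highest in KO2, and both fitted values depend on the prior count since KO1 had 0 reads. ZNF580 (0.41) and ZNF229 (0.33) were also higher in KO2. Lower in KO2 were ZNF69 (-3.45), ZNF177 (-1.5), ZNF846 (-1.24), ZNF699 (-1.18), ZNF709 (-1.02), ZNF470 (-0.76), ZNF808 (-0.63), ZNF93 (-0.55), ZNF528 (-0.535), ZNF829 (-0.48) and ZNF146 (-0.195), whose call was lost with a correction for neighbouring genes (-0.0979).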

How the results depend on the processing

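No called direction of a named gene reversed under any of 22 alternatives, and 39 of 52 calls of named genes held under all of them (41 when left-out libraries are set aside). Over these alternatives and the values as reported, 31.1% to 46.8% of the family was higher in KO1, against 15.2% to 22% of all genes tested, and 16.5% to 25% in KO2, against 12.2% to 17.6%. The median log2 fold change in KO1 and KO2 was 0.292 and 0.142 with log2(TPM + 1), 0.174 and 0.085 with log2(TPM + 5), and 0.296 and 0.144 with a mean of at least 5 TPM. In KO1 it was 0.301 with median centring, 0.288 with quantile normalization, 0.273 with a GC and length trend with or without the block, 0.282 with limma-voom, and 0.317 to 0.372 over left-out libraries. The filter at 5 TPM, which tests fewer genes, left 59 higher and 2 lower in KO1, 30 and 5 in KO2, 2 higher in KO2 than in KO1, and 26 called in both clones in one direction. A correction for neighbouring genes left 5 lower in KO2. Leaving out a library gave 5 to 8 lower in KO2 and 26 to 43 lower in KO2 than in KO1. A gap of 2 Mb gave 8 clusters. Replicate letters did not pair the libraries: same-letter correlations of deviations ran from -0.0736 to 0.0371. With the replicate block 77 were higher and 4 lower in KO1, 42 and 8 in KO2, and 3 and 34 in KO2 against KO1. The cause of these shifts was not tested. Depth limits the genes near 0 reads, where fitted values depend on the prior count.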
